A study of Mus musculus with 30 samples.

Results

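The genes of the TCA cycle, of pyruvate entry into mitochondria and of anaplerosis were examined in AML12 cells, a mouse hepatocyte line, after knockdown of the forkhead transcription factors FoxK1 and FoxK2. The 31 genes were taken from a fixed list by matching Ensembl identifiers to gene symbols, out of 49089 genes in the count tables. All 31 were among the 11368 genes that passed the filter on low counts. They comprised the pyruvate carrier (Mpc1, Mpc2), the pyruvate dehydrogenase complex (Pdha1, Pdhb, Dlat, Dld, Pdhx), the enzymes of citrate and isocitrate (Cs, Aco1, Idh1, Idh2, Idh3a, Idh3b, Idh3g), the steps from oxoglutarate to succinate (Ogdh, Dlst, Sucla2, Suclg1, Suclg2), those from succinate to oxaloacetate (Sdha, Sdhb, Sdhc, Sdhd, Fh1, Mdh2), and enzymes that feed the cycle or exchange its intermediates with the cytosol (Pcx, Mdh1, Me2, Got1, Got2, Glud1).

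RNA-seq was available for 30 cultures in 8 groups. Control cells had received a non-silencing siRNA, and FoxK1 KD, FoxK2 KD and DKD cells had received siRNA against Foxk1, Foxk2 or both, so that every group was transiently transfected. Each genotype was measured at basal and after insulin (100 nM for 6 h), always after overnight serum starvation in medium with 0.1% BSA. The labels give the basal cultures a treatment time of 0, whereas the protocol describes mock treatment. If the labels hold, insulin and 6 h of further culture cannot be told apart in the insulin effects below. Each group had 4 replicates, but insulin-treated Control and DKD cells had 3. Nothing in the labels says that replicates came from separate experiments, so p-values measure the spread between these cultures.

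The TCA cycle oxidizes acetyl-CoA to carbon dioxide and passes electrons to the respiratory chain. Pyruvate enters mitochondria through a carrier and is converted to acetyl-CoA by the pyruvate dehydrogenase complex or to oxaloacetate by pyruvate carboxylase. In hepatocytes the same intermediates also supply gluconeogenesis, lipid synthesis and amino acid metabolism, so that withdrawn intermediates have to be replaced by anaplerosis.

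The promoters of some members are shown because the study concerns forkhead factors. RefSeq promoter windows (GRCm38.p6, 250 bases before to 50 after a gene start) were at hand for 28 of the 31 genes, in 36 windows. They were searched on both strands for 2 forkhead cores (GTAAACA and ATAAACA), for a core of the NRF1 motif (GCGCATG) and for the estrogen-related receptor motif (AAGGTCA). The forkhead core GTAAACA was found in 0 of the 36 windows, against 3.65% of 32851 windows of the whole table. The other core, ATAAACA, was found in 1, that of Suclg1, against 4.6%. The NRF1 core was found in 4 windows, of Glud1, Ogdh and Sdhb, against 3.91% of all windows, where 2 overlapping Ogdh windows held the same site, and the receptor motif in 3, of Got1, Ogdh and Sdhd, against 4.72%. Both forkhead cores share all letters but the first, and the NRF1 core can overlap its own reverse complement. A match describes the letters only. Ogdh is shown at 2 of its annotated starts because it had the largest rise with insulin in Control cells, Suclg1 because it held the forkhead core, and Sdhb as another gene with the NRF1 core. Capitals mark the match, read on either strand.
Ogdh (chr11:6291920-6292219, plus strand): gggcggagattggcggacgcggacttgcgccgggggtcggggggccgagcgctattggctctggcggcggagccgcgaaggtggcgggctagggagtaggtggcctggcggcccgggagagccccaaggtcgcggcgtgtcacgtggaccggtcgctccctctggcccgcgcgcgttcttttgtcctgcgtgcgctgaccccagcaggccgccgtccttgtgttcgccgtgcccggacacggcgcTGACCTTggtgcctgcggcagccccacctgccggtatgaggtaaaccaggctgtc
Ogdh (chr11:6292308-6292607, plus strand): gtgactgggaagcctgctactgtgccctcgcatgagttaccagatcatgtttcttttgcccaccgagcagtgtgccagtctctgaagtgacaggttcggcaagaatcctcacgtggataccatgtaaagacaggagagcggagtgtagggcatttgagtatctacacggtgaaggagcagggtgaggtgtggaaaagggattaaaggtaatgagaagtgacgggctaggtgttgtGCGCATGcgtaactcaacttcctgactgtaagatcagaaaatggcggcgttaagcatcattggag
Suclg1 (chr6:73248255-73248554, plus strand): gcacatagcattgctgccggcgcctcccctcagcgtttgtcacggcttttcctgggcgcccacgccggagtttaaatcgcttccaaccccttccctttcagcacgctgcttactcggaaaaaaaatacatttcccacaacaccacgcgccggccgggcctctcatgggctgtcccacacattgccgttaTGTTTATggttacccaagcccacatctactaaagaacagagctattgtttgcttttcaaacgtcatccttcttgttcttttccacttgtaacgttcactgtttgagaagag
Sdhb (chr4:140961021-140961320, plus strand): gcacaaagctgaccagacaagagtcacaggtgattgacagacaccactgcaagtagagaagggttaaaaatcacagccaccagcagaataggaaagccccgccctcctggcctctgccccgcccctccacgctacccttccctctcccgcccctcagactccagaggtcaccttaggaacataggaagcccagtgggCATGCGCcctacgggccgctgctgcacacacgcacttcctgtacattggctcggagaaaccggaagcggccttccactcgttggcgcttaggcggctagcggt

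Between 2141460 and 5668270 reads per culture were counted on genes. At basal, Foxk1 mRNA remained at 45.2% (FoxK1 KD) and 57.1% (DKD) of its mean in Control, and Foxk2 mRNA at 33.7% (FoxK2 KD) and 35.8% (DKD). With insulin these percentages, now of the insulin-treated Control mean, were 58.2 and 64.6 for Foxk1, and 40.4 and 39.5 for Foxk2. Foxk1 averaged 81.4 CPM in basal and 53.0 CPM in insulin-treated Control cells. Its means in those states were 36.8 and 30.9 CPM in FoxK1 KD cells and 46.5 and 34.2 CPM in DKD cells. Of 9 hepatocyte markers, 6 had a mean of at least 5 CPM (counts scaled to the library size) over all cultures. Apob and Hnf4a had the highest means, while Apoa1, Fgb and Ahsg averaged under 1 CPM. Markers of stellate cells and endothelium summed to at most 1.39 CPM in any culture. Of 4 cholangiocyte markers 3 were present, with Krt19 at a mean of 488 and Sox9 at 201 CPM, Epcam was at 0, and their sum was 534 to 1073 CPM per culture. The 4 macrophage or leukocyte markers summed to 8.22 to 12.9 CPM in basal Control cells and 4.09 to 6.33 after insulin, and to 15.7 to 18.0 and 6.63 to 9.51 in DKD cells. The sums were highest in FoxK1 KD cells, at 17.7 to 22.1 and 10.5 to 13.7, and in FoxK2 KD cells they were 11.1 to 13.4 and 4.09 to 6.61. Csf1r had the highest mean of them, Adgre1 was at 0 throughout, and their part in the results was not tested. Control basal replicate 1 stood apart, with a root-mean-square log2 distance of 0.486 from its group against at most 0.38 for any other culture. Apart from any label, 52 genes were lower and 83 higher in all 12 basal Control, FoxK1 KD and FoxK2 KD libraries than in all 18 others, and 0 members were among them. DKD against Control at basal crosses this division, as do the insulin effects in Control, FoxK1 KD and FoxK2 KD cells and the contrast of the DKD with the Control response to insulin, so that in these comparisons the division and the condition cannot be told apart. Insulin in DKD cells and the knockdowns against Control after insulin do not cross it.

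Levels per kilobase of exon in basal Control cells spanned more than 2 orders of magnitude. The length was the union of all annotated exons of a gene, so that the order depends on the annotation. In CPM without length, Glud1 was at 722, Cs at 470, Mdh1 at 423 and Sdhd at 263. The median of the 31 genes was 40.4 CPM per kb, against 8.07 over all tested genes with a length. Per kb, Sdhd, a membrane anchor of succinate dehydrogenase, was highest at 214 ± 17.4 CPM per kb (SD, n = 4). Glud1, the glutamate dehydrogenase, followed at 172 ± 10.3, and cytosolic malate dehydrogenase Mdh1 at 165 ± 10.4, 2 neighbors that differed by less than their spread. Idh1 and Idh2, the cytosolic and mitochondrial NADP-dependent isocitrate dehydrogenases, were at 130 ± 13.8 and 126 ± 11.9 CPM per kb and also lay within their spread. At the other end, Pcx was at 6.50 ± 2.26, Mpc2 at 7.23 ± 1.34 and Me2 at 9.18 ± 0.389 CPM per kb. Mpc1 was at 1.37 ± 0.193, with only 310 counts over all 30 cultures. Its 3 pseudogene copies held 138 counts, 44.52% of its own, and 23.1% of its exon bases overlap a gene on the opposite strand, so that its values are uncertain. For Pdha1 the opposite-strand overlap is 16.1% of exon bases, with Map3k15.

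**Figure D1:**
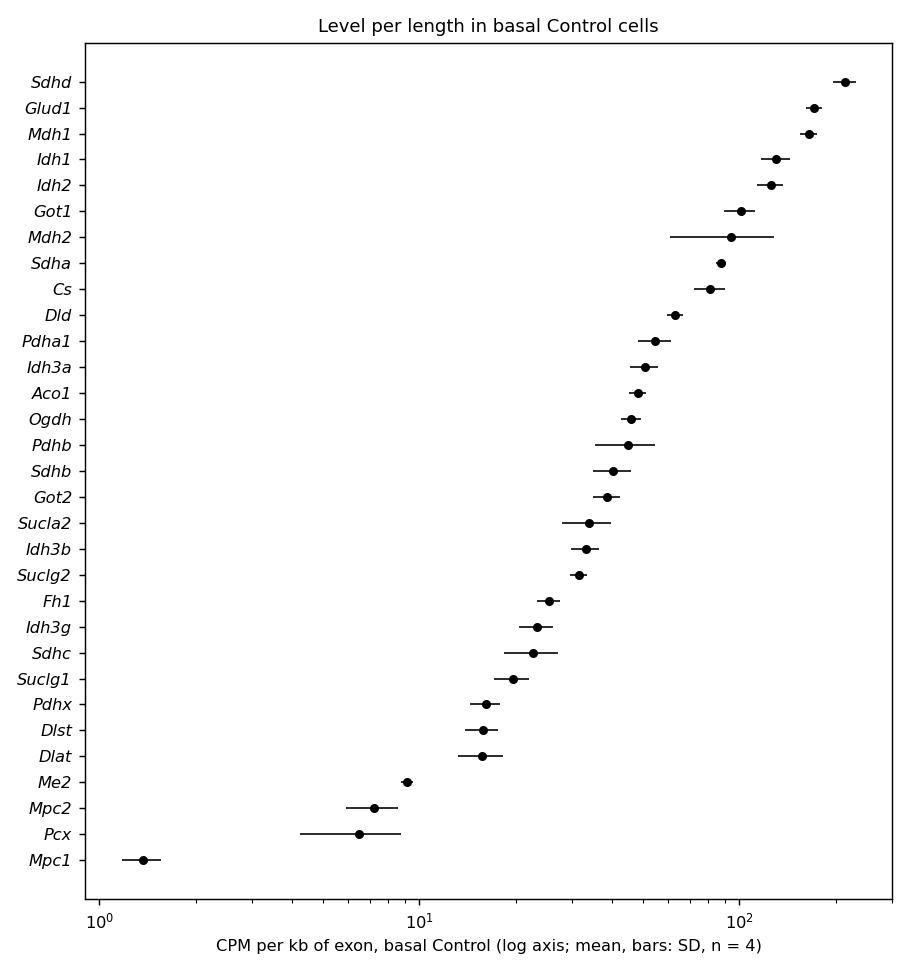
Mean level in basal Control cells in CPM per kb of exon for the 31 genes, ordered by this level (log axis, bars are the SD of 4 cultures). The length is the union of all annotated exons. Sdhd is highest at 214 and Mpc1 lowest at 1.37 CPM per kb.

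With insulin, 8 of these genes rose and 3 fell in Control cells, where 12.4% and 13.1% of all tested genes were called higher and lower at an FDR below 0.05. Ogdh, the first subunit of the oxoglutarate dehydrogenase complex, had the largest rise, and Cs, the citrate synthase, and Dlst, the second subunit of the oxoglutarate dehydrogenase complex, followed. The falls were in Pdha1, the catalytic alpha subunit of pyruvate dehydrogenase, and in Idh3b and Idh3g, the regulatory subunits of the NAD-dependent isocitrate dehydrogenase. The median log2 fold change of the 31 genes was 0.07, against -0.01 over all genes. In FoxK1 KD cells 9 rose and 3 fell (16.2% and 15.4% of all genes), in FoxK2 KD cells 7 rose and 3 fell (14.4% and 13.7%), and in DKD cells 7 rose and 2 fell (8.31% and 7.99%).

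**Figure D2:**
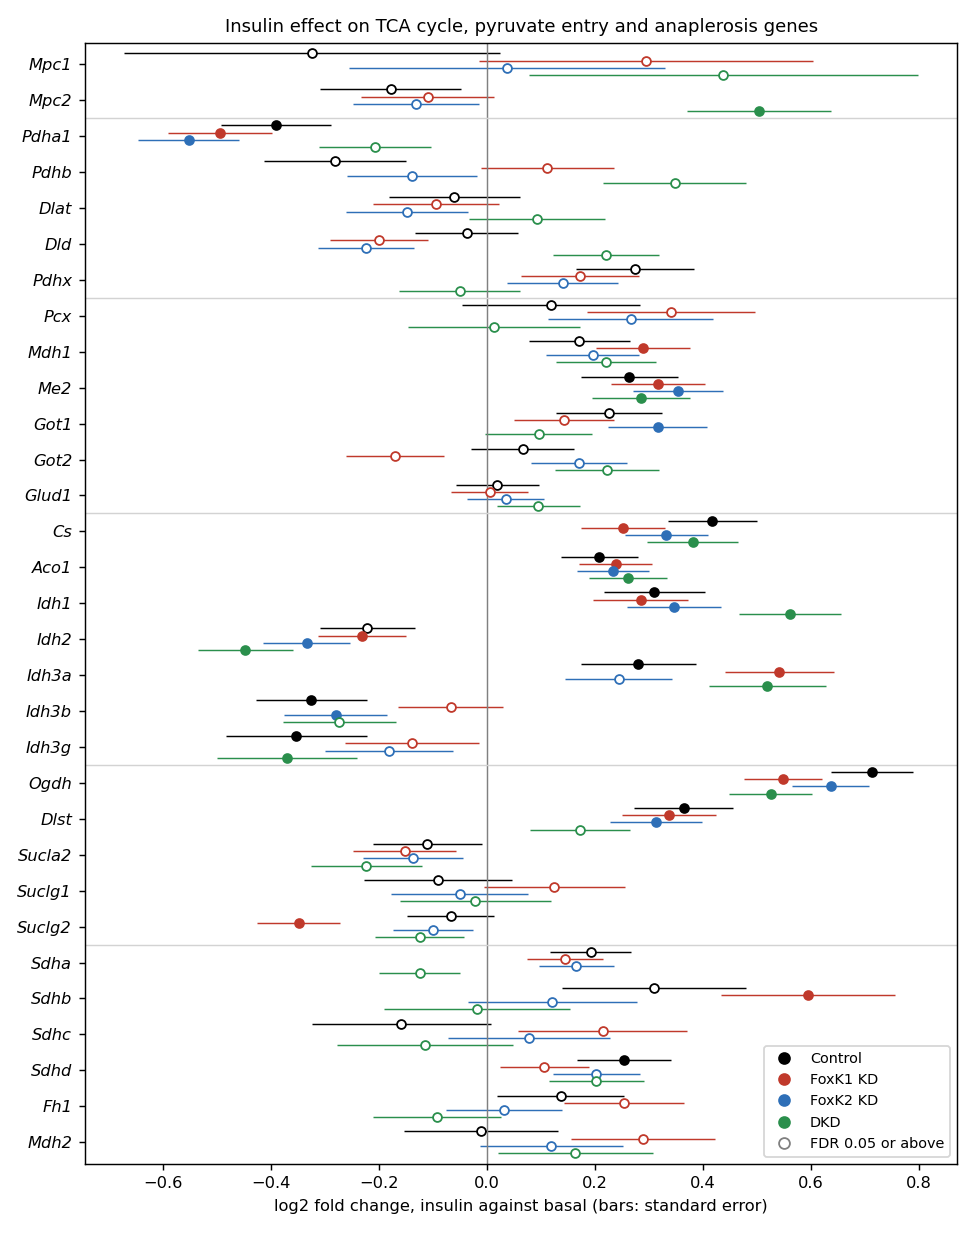
Log2 fold change with insulin against basal for each of the 31 genes in the 4 genotypes (bars are the standard error, filled points have an FDR below 0.05, grey lines divide the functional groups). Ogdh lies highest in Control cells at 0.71 and Pdha1 lowest in FoxK2 KD cells at -0.55.

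Ogdh (ENSMUSG00000020456.17, GRCm38 chr11:6291633-6356642, plus strand) in Control cells was at 235, 260, 271 and 239 CPM at basal and at 412, 399 and 423 CPM after insulin. The lowest insulin-treated culture of any genotype was at 343.5 CPM and the highest basal culture at 273.4 CPM, so that the states did not overlap in any genotype. The log2 fold change in Control cells was 0.71 (standard error 0.08, adjusted p = 1.2e-08, edgeR), a 1.64-fold rise. It was 0.55 in FoxK1 KD, 0.64 in FoxK2 KD and 0.53 in DKD cells. The difference from the Control response had 95% intervals of -0.37 to 0.04, -0.28 to 0.13 and -0.40 to 0.03 for the 3 knockdowns in that order on the log2 scale.

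Cs (ENSMUSG00000005683.7, GRCm38 chr10:128337734-128362479, plus strand) in Control cells was at 403, 532, 478 and 465 CPM at basal and at 663, 648 and 571 CPM after insulin. The lowest insulin-treated culture lay above the highest basal one. The log2 fold change was 0.42 (standard error 0.08, adjusted p = 0.000268, edgeR) in Control and 0.25, 0.33 and 0.38 in FoxK1 KD, FoxK2 KD and DKD cells. Dlst was at 154, 165, 159 and 125 CPM at basal and 195, 171 and 215 CPM after insulin in Control cells, without overlap. It changed by 0.36 (standard error 0.09, adjusted p = 0.00304, edgeR). Idh1 was at 307, 365, 378 and 396 CPM at basal and 484, 402 and 460 CPM after insulin in Control cells. Its groups were close, with 402 CPM as the lowest treated and 396 CPM as the highest basal value, and the log2 fold change was 0.31 (standard error 0.09, adjusted p = 0.0131, edgeR).

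The other 4 rises in Control cells, those of Idh3a, Me2, Sdhd and Aco1, ran from 0.21 to 0.28 on the log2 scale. Me2 is the mitochondrial malic enzyme and Aco1 the cytosolic aconitase. Among the falls, Pdha1 was at 213, 208, 225 and 170 CPM at basal and 157, 147 and 163 CPM after insulin. Every treated culture lay below every basal one, and the log2 fold change was -0.39 (standard error 0.10, adjusted p = 0.00412, edgeR). Idh3g was at 59.3, 59.8, 58.8 and 74.3 CPM at basal and 50.9, 54.7 and 43.1 CPM after insulin, a change of -0.35 (standard error 0.13, adjusted p = 0.0427, edgeR). Idh3b was at 128, 113, 110 and 102 CPM and then at 94.4, 80.6 and 95.3 CPM, a change of -0.33 (standard error 0.10, adjusted p = 0.0177, edgeR). Neither gene's groups overlapped. Idh3a, the catalytic subunit of the same enzyme, was called higher while both other subunits were called lower. Its groups overlapped, at 231 to 292 CPM at basal and 252 to 351 CPM after insulin (adjusted p = 0.0481, edgeR). The log2 ratio of Idh3a to Idh3g also overlapped between these states in Control cells.

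Of the 11 calls in Control cells, those of Ogdh, Cs, Dlst and Pdha1 held whichever library was left out. That of Idh1 was lost without Control insulin replicate 1 (adjusted p = 0.0959), and that of Me2 without the same library (0.31) or Control basal replicate 4 (0.0665). Sdhd was lost without Control basal replicate 2, 3 or 4 or Control insulin replicate 1 or 2, with adjusted p from 0.0608 to 0.113. Aco1 was lost without Control basal replicate 2 or 4 or any of the Control insulin libraries (0.0567 to 0.089). Idh3a was lost without Control basal replicate 2, 3 or 4 or Control insulin replicate 1 or 3 (0.081 to 0.299). Idh3b was lost without Control basal replicate 1 (0.0586) or Control insulin replicate 2 (0.14), and Idh3g without Control basal replicate 4 or Control insulin replicate 1 or 3 (0.0652 to 0.229). The count was 7 without Control basal replicate 4 and 6 without Control insulin replicate 1, where 3 members were higher and 3 lower. With no filter on low counts 4 were higher and 4 lower. A fit of only these 2 groups called 2 members, Ogdh and Cs. All these p-values are from edgeR's quasi-likelihood test.

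**Figure D3:**
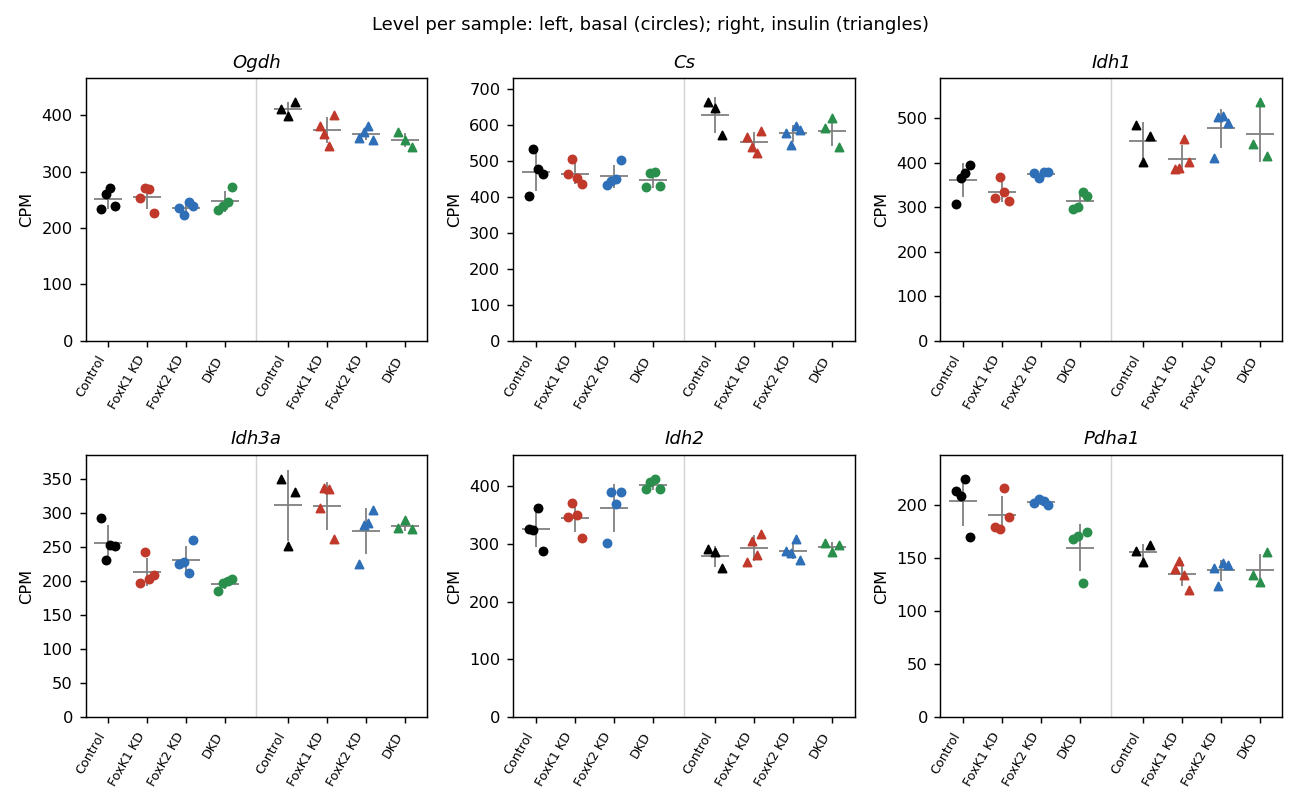
CPM per culture for Ogdh, Cs, Idh1, Idh3a, Idh2 and Pdha1 in the 8 groups, basal as circles on the left and insulin as triangles on the right of each panel (grey bars are mean and SD, n = 4 or 3). Ogdh in insulin-treated cultures lies at or above 343.5 CPM and in basal cultures at or below 273.4 CPM.

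DKD cells gave an insulin comparison that does not cross the division of libraries described above, but it moved with base composition. Its Spearman correlation with GC content was -0.219 over all genes and -0.2 over the 31 genes. The change of its basal DKD cultures against Control had a correlation of 0.477 over all genes. The part of base composition in the insulin changes was not tested. Of the 31 genes, 7 rose and 2 fell. Idh1 was at 297, 300, 335 and 327 CPM at basal and 443, 536 and 414 CPM after insulin, a change of 0.56 (standard error 0.09, adjusted p = 5.68e-05, edgeR). The groups were well apart. Ogdh was at 231, 239, 246 and 273 CPM and then at 369, 356 and 344 CPM, a change of 0.53 (standard error 0.08, adjusted p = 6.87e-06, edgeR). Idh3a was at 185, 197, 201 and 203 CPM at basal and 278, 290 and 276 CPM after insulin, a change of 0.52 (standard error 0.11, adjusted p = 0.000769, edgeR). Every treated culture again lay above every basal one for both genes. Mpc2, a subunit of the mitochondrial pyruvate carrier, was at 32.2, 47.1, 41.2 and 42.6 CPM and then at 63.7, 57.3 and 52.6 CPM, a change of 0.50 (standard error 0.13, adjusted p = 0.00767, edgeR). Cs, Me2 and Aco1 rose by 0.38, 0.29 and 0.26 on the log2 scale.

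Idh2 (ENSMUSG00000030541.16, GRCm38 chr7:80094846-80115392, minus strand) fell in DKD cells, from 395, 407, 413 and 395 CPM at basal to 301, 286 and 298 CPM after insulin. The groups did not overlap, and the change was -0.45 (standard error 0.09, adjusted p = 0.000412, edgeR). Idh3g fell from 71.8, 67.5, 79.1 and 66.8 CPM to 66.1, 46.4 and 50.8 CPM, where the highest treated value lay just under the lowest basal one. That change was -0.37 (standard error 0.13, adjusted p = 0.0456, edgeR). The calls of Ogdh, Cs, Idh1, Idh3a and Idh2 held whichever library was left out. Those of Idh3g, Me2, Aco1 and Mpc2 did not. Idh3g was lost without DKD basal replicate 1, 2 or 3 or DKD insulin replicate 2 or 3, with adjusted p from 0.0567 to 0.214 in edgeR. Me2 was lost without DKD basal replicate 2 or 3 or DKD insulin replicate 1 or 3 (0.0616 to 0.2), Aco1 without DKD insulin replicate 1 or 2 (0.0804 and 0.0889), and Mpc2 without DKD basal replicate 1 (0.0561) or DKD insulin replicate 1 (0.0664). The count was 6 without DKD insulin replicate 1.

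Across genotypes, 5 genes were called higher with insulin in 4 of 4 genotypes: Ogdh, Cs, Aco1, Idh1 and Me2. Over all tested genes 416, or 3.66%, had that pattern. Idh3a and Dlst were called higher in 3 of 4, a pattern of 4.62% of all genes. Pdha1 and Idh2 were called lower in 3 of 4 genotypes (4.83% of all genes). Lower in all 4 were 0 members (2.81% of all genes), and 0 were called in both directions (0.48%). The comparisons in the 4 genotypes share no cultures. Pdha1 fell by 0.39, 0.49 and 0.55 on the log2 scale in Control, FoxK1 KD and FoxK2 KD cells, and in DKD cells its change was -0.21 (adjusted p = 0.172, edgeR). Idh2 fell by 0.23, 0.33 and 0.45 in FoxK1 KD, FoxK2 KD and DKD cells and was at -0.22 (adjusted p = 0.0593, edgeR) in Control cells. In FoxK1 KD cells Sdhb, the iron-sulfur subunit of succinate dehydrogenase, rose by 0.59 (adjusted p = 0.0049, edgeR), and Suclg2, the GDP-forming beta subunit of succinyl-CoA ligase, fell by 0.35 (adjusted p = 0.000725, edgeR). Got1, the cytosolic aspartate aminotransferase, rose by 0.32 in FoxK2 KD cells (adjusted p = 0.00898, edgeR), a call lost without FoxK2 KD basal replicate 1 (0.0577). In FoxK1 KD cells the call of Idh1 was lost without FoxK1 KD insulin replicate 3 (0.0622), and that of Idh2 without FoxK1 KD basal replicate 2 or insulin replicate 1 or 3 (0.0698 to 0.0855). A call in one genotype and not in another is not a difference between them, which was tested directly.

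The difference in insulin effect between each knockdown and Control was called for 0 of the 31 genes. Over all genes the share called was 0% higher and 0% lower with either single knockdown, and 1% higher and 0.537% lower in DKD cells. At an unadjusted p below 0.05, edgeR gave 2 members with FoxK1 KD, 0 with FoxK2 KD and 4 with DKD. Of all 11368 tested genes, 1519, 625 and 1661 passed in these 3 comparisons, in that order. Limma-voom called 0 members in each of the 3, and DESeq2 called 0 with either single knockdown. The DKD difference crosses the division of libraries, which cannot be told apart from it. Mpc2 had the largest difference among members other than Mpc1, 0.68 (standard error 0.19, adjusted p = 0.0523, edgeR). Pdhb, the beta subunit of pyruvate dehydrogenase, differed by 0.63 (standard error 0.19, adjusted p = 0.0768), and Sdha, the flavoprotein of succinate dehydrogenase, by -0.32 (standard error 0.11, adjusted p = 0.125). DESeq2 called Mpc2 (adjusted p = 0.0383) and Sdha (adjusted p = 0.0486). In edgeR, Mpc2 was called without Control basal replicate 1 (adjusted p = 0.00614) or DKD basal replicate 2 (0.043), and Pdhb without Control basal replicate 2 (0.0425) or Control insulin replicate 1 (0.0329).

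In DKD cells at basal, 3 of the 5 genes of the pyruvate dehydrogenase complex (Dld, Pdhb and Pdha1), 1 of the 2 carrier genes (Mpc2) and Idh3a were lower than in Control, while Idh2 and Sdha were higher. The other genes of the complex, Dlat and Pdhx, had values of -0.26 and 0.10 and were not called. These were 5 lower and 2 higher members, where 10.8% and 10.3% of all tested genes were called in those directions. The median log2 fold change of the 31 genes was -0.06, against 0.00 over all genes. By range alone, 4 members had DKD cultures all above and 4 all below the Control cultures, a pattern of 9.61% and 8.78% of all genes. None of the 6 genes of anaplerosis and exchange was called, with values from -0.18 to 0.38 on the log2 scale.

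**Figure D4:**
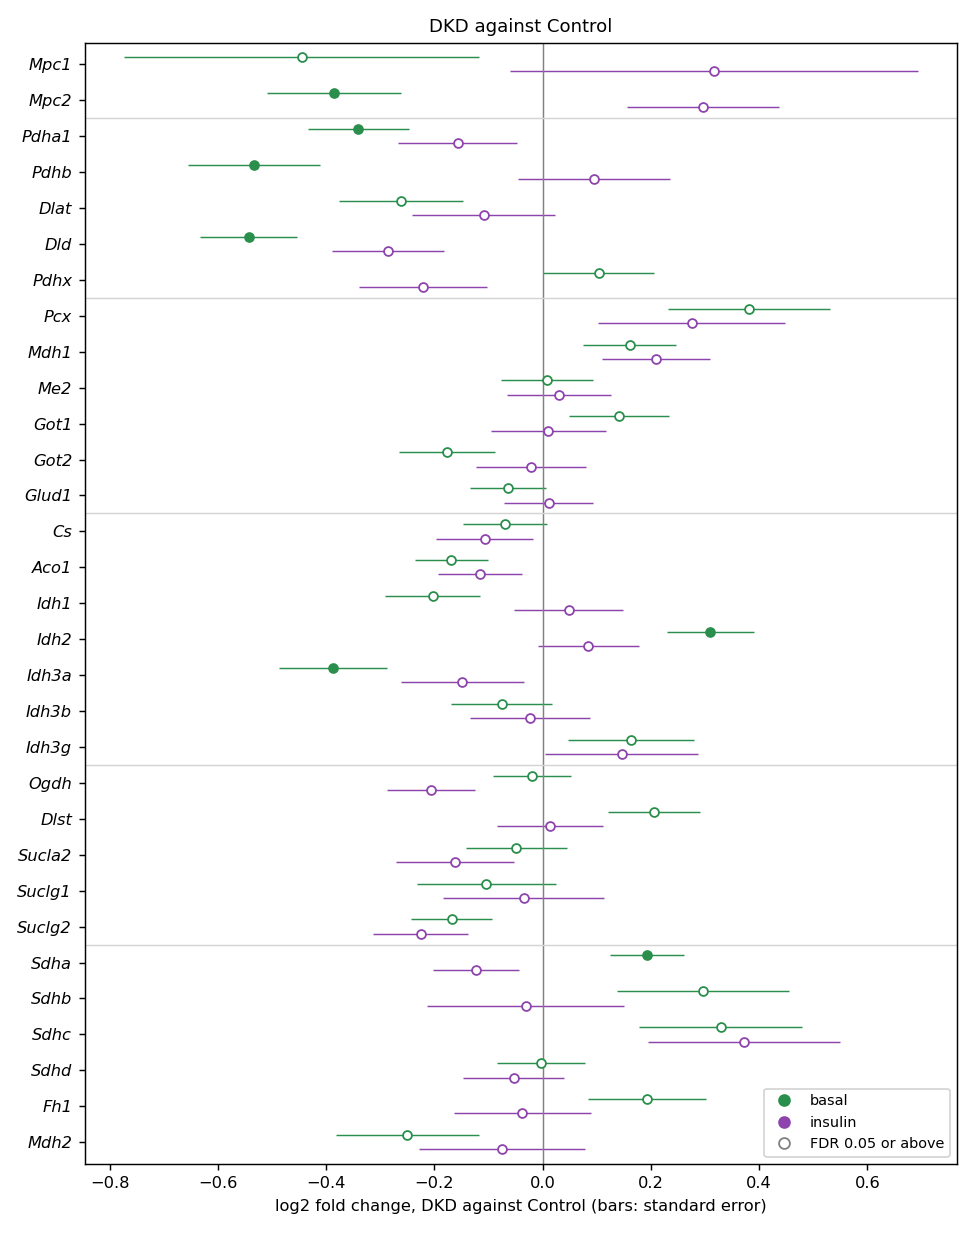
Log2 fold change of DKD against Control for each of the 31 genes, at basal and after insulin (bars are the standard error, filled points have an FDR below 0.05). At basal, Dld is lowest at -0.54. After insulin no gene has an FDR below 0.05.

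Dld (ENSMUSG00000020664.9, GRCm38 chr12:31331277-31351453, minus strand), the lipoamide dehydrogenase shared by the pyruvate and oxoglutarate dehydrogenase complexes, was at 214, 237, 231 and 247 CPM in Control and 144, 161, 150 and 183 CPM in DKD cells at basal. All DKD cultures lay below all 12 basal cultures of the other genotypes, which form one side of the division of libraries. The log2 fold change was -0.54 (standard error 0.09, adjusted p = 5.5e-05, edgeR). Pdhb (ENSMUSG00000021748.8, GRCm38 chr14:8165996-8173025, minus strand) was at 226, 146, 171 and 150 CPM in Control and 110, 122, 110 and 135 CPM in DKD cells. Its groups did not overlap, although Control replicate 1 was well above the rest, and the change was -0.53 (standard error 0.12, adjusted p = 0.00194, edgeR). Idh3a was at 292, 231, 253 and 251 CPM in Control and 185, 197, 201 and 203 CPM in DKD cells, a change of -0.39 (standard error 0.10, adjusted p = 0.00532, edgeR). These groups did not overlap either.

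Mpc2 (ENSMUSG00000026568.6, GRCm38 chr1:165460637-165481214, plus strand) was at 39.1, 59.5, 60.5 and 53.2 CPM in Control and 32.2, 47.1, 41.2 and 42.6 CPM in DKD cells. Control replicate 1 lay among the DKD cultures, and the change was -0.39 (standard error 0.12, adjusted p = 0.0231, edgeR). Pdha1, which was at 213, 208, 225 and 170 CPM in Control, was at 168, 171, 127 and 175 CPM in DKD cells, a change of -0.34 (standard error 0.09, adjusted p = 0.0082, edgeR). The lowest Control culture lay within the DKD range. Idh2 was at 326, 323, 363 and 287 CPM in Control and 395, 407, 413 and 395 CPM in DKD cells, a change of 0.31 (standard error 0.08, adjusted p = 0.00528, edgeR). Sdha was at 367, 379, 348 and 357 CPM in Control and 450, 440, 389 and 379 CPM in DKD cells, a change of 0.19 (standard error 0.07, adjusted p = 0.0421, edgeR). For Idh2 and Sdha, all DKD cultures lay above all 12 other basal cultures, as they did for Dlst, which had a change of 0.21 (adjusted p = 0.0835, edgeR). Those 12 cultures form one side of the division of libraries, and the share of all genes with this pattern was not determined.

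The change in DKD cells at basal moved with base composition. Its Spearman correlation with GC content over 11346 genes was 0.477, and 0.464 over the 31 genes, given as a description. Dld has 40.0% GC in its exons and Idh2 55.9%. With a trend on GC content and length taken out of each library, Dld was at -0.27 (adjusted p = 0.00369), Pdhb at -0.45 (adjusted p = 0.00911) and Sdha at 0.24 (adjusted p = 0.0098) in edgeR. Mpc2 at -0.26 (adjusted p = 0.112), Pdha1 at -0.25 (0.0525), Idh3a at -0.25 (0.0556) and Idh2 at 0.14 (0.239) were no longer called, while Aco1 at -0.20, Mdh2 at -0.35 and Got2 at -0.27 were. Without Control basal replicate 1, 12 members were called, and Pcx, the pyruvate carboxylase, was at 0.61 (adjusted p = 0.0007) against 0.38 (adjusted p = 0.0655) with all cultures. The other additions were Dlat, Idh1, Suclg2 and Sdhc. The call of Mpc2 was lost without Control basal replicate 2 (0.0777) or 3 (0.0872) or DKD basal replicate 1 (0.127). That of Sdha was lost without Control basal replicate 3 or 4 or DKD basal replicate 1 or 2, with adjusted p from 0.0818 to 0.198 in edgeR.

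**Figure D5:**
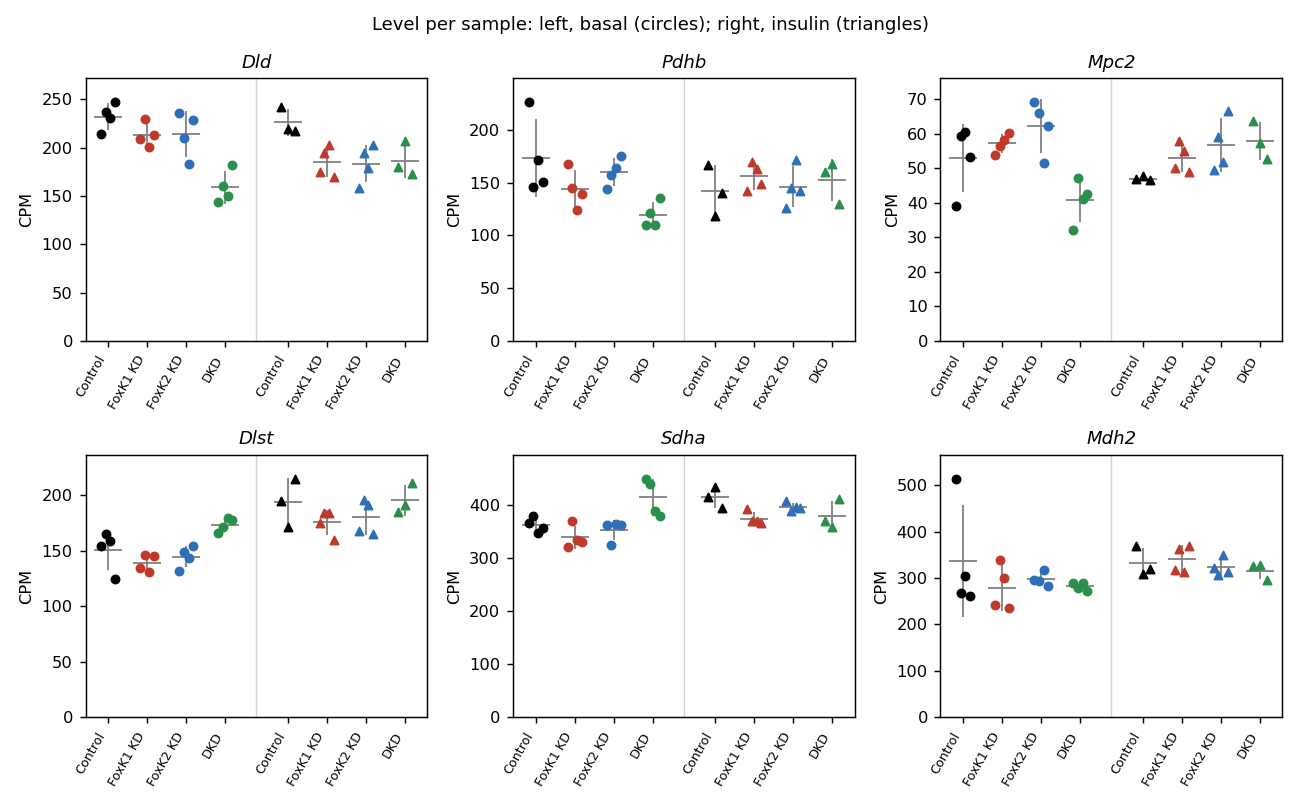
CPM per culture for Dld, Pdhb, Mpc2, Dlst, Sdha and Mdh2 in the 8 groups, basal as circles on the left and insulin as triangles on the right of each panel (grey bars are mean and SD, n = 4 or 3). Basal DKD cultures are lowest for Dld, at 144 to 183 CPM, and Control basal replicate 1 stands alone for Mdh2 at 514 CPM.

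After insulin, DKD against Control called 0 members, where 0.871% of all genes were called higher and 0.343% lower. At an unadjusted p below 0.05 edgeR gave 6 members, beside 1449 of all 11368 tested genes. DESeq2 and limma-voom called 0 members. Dld was at 243, 219 and 218 CPM in Control and 180, 207 and 173 CPM in DKD cells, without overlap, and its change was -0.28 (95% interval -0.49 to -0.08, adjusted p = 0.192, edgeR). Mpc2 was at 46.9, 47.7 and 46.5 CPM in Control and 63.7, 57.3 and 52.6 CPM in DKD cells, also without overlap. By range alone, 1 member lay wholly above and 3 wholly below Control here, with 3 cultures in each group. The share of all genes with this pattern after insulin was not determined, so that it is a description only. Mpc2 and Dld were not called. The value for Mpc2 of 0.30 (95% interval 0.02 to 0.57, not adjusted for the number of genes, adjusted p = 0.359, edgeR) had the opposite sign to that at basal. Pdhb, at -0.53 at basal, was at 167, 118 and 141 CPM in Control and 160, 168 and 130 CPM in DKD cells after insulin, with overlapping groups.

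The single knockdowns were compared with Control in the same way. In FoxK1 KD cells at basal 0 members were called, where 3.39% of all genes were called higher and 4.71% lower. At an unadjusted p below 0.05 edgeR gave 6, beside 2677 of all 11368 tested genes. Limma-voom called 0 members and DESeq2 called 1, Aco1. At an FDR below 0.25, 7 members were lower and 0 higher, where 14.9% and 11.7% of all genes passed. They were Idh3a, Mdh2, Pdhb, Pdhx, Idh3b, Me2 and Aco1, with values from -0.27 to -0.19. Idh3a was at 292, 231, 253 and 251 CPM in Control and 198, 244, 203 and 209 CPM in FoxK1 KD cells, with overlap (log2 fold change -0.27, adjusted p = 0.0854, edgeR). In edgeR, Idh3a was called without Control basal replicate 2 (adjusted p = 0.0473), and Aco1 without Control basal replicate 4 (0.042).

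In FoxK2 KD cells at basal 0 members were called, where 0.211% of all genes were called higher and 0.167% lower. At an unadjusted p below 0.05 edgeR gave 0 members, beside 1272 of all 11368 tested genes. DESeq2 and limma-voom called 0 members. The changes ran from -0.19 to 0.22 on the log2 scale. These knockdown comparisons share the Control cultures, so that their values are given side by side. For Dld the basal change was -0.54 in DKD cells, and basal FoxK1 KD and FoxK2 KD cultures lay at 201 to 230 and 183 to 237 CPM, against 214 to 247 CPM in Control.

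After insulin, FoxK1 KD cells had 1 member lower and 0 higher, where 1.72% and 1.86% of all genes were called. This was Suclg2 (ENSMUSG00000061838.7, GRCm38 chr6:95473009-95718800, minus strand), at 133, 151 and 134 CPM in Control and 96.0, 100, 120 and 112 CPM in FoxK1 KD cells. The groups did not overlap, and the change was -0.38 (standard error 0.08, adjusted p = 0.00583, edgeR). Its call held whichever library was left out. Without Control insulin replicate 3, Got2 (adjusted p = 0.00649) and Pdhx (adjusted p = 0.0299) were called too in edgeR, for a count of 3. In FoxK2 KD cells after insulin 0 members were called, where 0.0088% of all genes were called higher and 0.0176% lower. Here edgeR gave 2 members at an unadjusted p below 0.05, beside 685 of all 11368 tested genes. DESeq2 and limma-voom called 0 members.

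Ratios of related members within a culture do not depend on library size, but they can move with base composition. In 7 ratios compared in 3 basal knockdown comparisons, the exact two-sided permutation test gave 3 values at 0.0286, the smallest p it can give for 4 against 4 cultures. They were all for DKD against Control. The log2 ratio of Idh1 to Idh2 was 0.15 ± 0.23 (SD, n = 4) in Control and -0.36 ± 0.08 (n = 4) in DKD cells. That of Idh3a to Idh3g was 2.03 ± 0.23 and 1.46 ± 0.13, and that of Got1 to Got2, the cytosolic and mitochondrial aspartate aminotransferases, was 0.46 ± 0.15 and 0.77 ± 0.05. With the GC and length trend taken out, the differences were -0.22 for Idh1 to Idh2 (from -0.51), -0.37 for Idh3a to Idh3g (from -0.56) and 0.31 for Got1 to Got2 (from 0.32). Before that step no ratio among these 3 overlapped between the groups, and the adjusted p over the 21 tests was 0.2 for each of the 3 in the exact permutation test. The ratio of Pcx to Pdha1, the carboxylase against the dehydrogenase route of pyruvate, differed by 0.77 (p = 0.0571, exact permutation test, adjusted 0.24). With insulin the log2 ratio of Idh1 to Idh2 was higher than at basal without overlap in each genotype, by 0.53 in Control, 0.52 in FoxK1 KD, 0.67 in FoxK2 KD and 1.003 in DKD cells, values given without a test. Over all genes the insulin effect had Spearman correlations with GC content of 0.072, 0.34, 0.246 and -0.219 in that order. Idh1 has 44.4% GC in its exons and Idh2 55.9%, and the part of base composition in these insulin ratios was not tested.

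A further list of 31 genes of the same pathway held assembly factors, lipoate synthesis, malic enzymes, amino acid and propionate metabolism, and 30 were tested. In DKD against Control at basal 2 were higher and 4 lower, beside 10.3% and 10.8% of all genes. Gpt2, the mitochondrial alanine aminotransferase, changed by 0.41 (adjusted p = 0.0166, edgeR) and Oxct1, the ketone body transferase, by -0.38 (adjusted p = 0.000222, edgeR). With insulin in Control cells 2 were higher and 5 lower, beside 12.4% and 13.1% of all genes. Me3, a mitochondrial malic enzyme, was at 3.50 to 6.80 CPM at basal and 0.314 to 1.58 CPM after insulin, a change of -2.08 (adjusted p = 4.3e-05, edgeR). Lipt1, a lipoyltransferase, changed by -0.85 (adjusted p = 0.0106) and Glul, the glutamine synthetase, by -0.81 (adjusted p = 8.24e-08) in edgeR. The insulin effect on Glul differed between DKD and Control cells by 0.61 (adjusted p = 0.0128, edgeR), the 1 gene of this list called there, and this difference too cannot be told apart from the division of libraries.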

How the data were processed

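The authors deposited raw read counts per Ensembl gene for each of 30 samples, without normalization. Per the submitters' processing notes, CASAVA 1.8, STAR 2.4.2a, featureCounts and GRCm38.p4 were used. Strand and multi-mapping settings and the annotation release are not given in the sources used here. Libraries came from an NEBNext kit.

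Counts were joined by identifier, and 48435 of 49089 genes were matched to GENCODE M21 (GRCm38) for symbols, positions, exon length and GC content. Groups came from the labels. Genes were filtered with edgeR's filterByExpr (11368 left), normalized by TMM and fitted in 1 model of 8 groups with the quasi-likelihood test (edgeR 4.0.16, R 4.3.3), with Benjamini-Hochberg adjustment over all tested genes and an FDR below 0.05. The standard error was the absolute log2 fold change over the square root of F, and 95% intervals were normal intervals from it. CPM used TMM-adjusted library sizes. Totals of 2141460 to 5668270 counts limit the precision of low genes such as Mpc1. Ratios used log2 CPM with a prior count of 0.5. Scripts were tested on simulated data. Near-identical copies were found with blastn 2.17.0 (at least 90% identity over 200 bases). Among 42 pairs of replicates none was a copy (lowest chi-square per degree of freedom 1.75).

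The members and all lists were chosen with earlier results of these data known. Values per culture were given for members called in the 2 DKD comparisons, the single knockdowns at basal and insulin in Control and DKD cells, at most 4 per direction, and for at most 3 further pathway genes per comparison. Other genes and values outside this rule were named after their values were seen. Alternatives were DESeq2 1.42.0, limma-voom (limma 3.58.1), DESeq2 size factors in edgeR, 2 other filters, fits of only the groups compared, a replicate block, a GC and length trend taken out, other thresholds, another prior count, and leaving out each library. Tables, exact tests and plots were made in Python 3.11.15 (scipy 1.17.1 for tests, matplotlib 3.10.9 for plots, with pandas 2.3.3 and numpy 2.4.6).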

Additional observations from a re-analysis of the deposited data

Results flagged for a closer look

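In 186 sets of 4 cultures (a gene in a group), 12 had 1 culture far from the other 3, with a gap to the nearest of them, as a share of the range, above Dixon's 95% critical value. This was 6.45% of the sets, and chance gives about 1 in 20. Control basal replicate 1 accounted for 3, with Mdh2 at 514.3 CPM (others 260.5 to 303.4), Pdhx at 73.43 CPM (others 59.26 to 61.25) and Sdhd at 295.2 CPM (others 250.8 to 254.3). DKD basal replicate 3 accounted for 2, with Pdha1 at 126.8 CPM and Suclg1 at 97.17 CPM. The others were Mpc1 at 2.25 CPM in Control basal replicate 2, Idh3g at 74.28 CPM in Control basal replicate 4, Suclg2 at 127.4 CPM in FoxK1 KD basal replicate 4, Got2 at 191 CPM in FoxK1 KD basal replicate 1, Sdha at 325.5 CPM in FoxK2 KD basal replicate 2 and at 392.7 CPM in FoxK1 KD insulin replicate 1, and Mdh1 at 462.3 CPM in FoxK2 KD insulin replicate 1.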

How the results depend on the processing

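Of 50 called member results, 0 changed sign under any alternative run, and all 50 kept their call with DESeq2, with its size factors in edgeR and with at least 10 counts in every sample. Calls were lost for 1 with limma-voom, 5 with the GC and length trend taken out, 7 with that trend and the block, 11 with no filter on low counts and 12 with fits of only the groups compared. The replicate numbers did not pair the cultures. The mean correlation of deviations was -0.0134 over 99 pairs with the same number (-0.205 to 0.199) and 0.00434 over 294 others. Of 30 cultures, 5 correlated best with their own number. With a replicate block 5 of the 50 calls were lost, and members called were 6 for DKD against Control at basal, 8 for insulin in Control, 12 in FoxK1 KD, 11 in FoxK2 KD and 8 in DKD cells. Members called at an FDR below 0.25 numbered 7, 19, 6 and 3 for FoxK1 KD basal, DKD basal, FoxK1 KD insulin and DKD insulin against Control. Of all 11368 genes, 3028, 4952, 1717 and 757 passed there. For insulin in the 4 genotypes in the same order members numbered 18, 21, 17 and 18, beside 5303, 6143, 5625 and 4244 of all genes. The DKD difference had 3 members, beside 1123 of all genes. With a fold above 1.5 as well, members called were 1, 1, 1 and 0 for insulin in the 4 genotypes, 2 for the DKD difference, and 0 for DKD basal and FoxK1 KD insulin. Of all genes, 1367, 1463, 1211 and 965 passed both limits for insulin, 459 for the DKD difference, 864 for DKD basal and 376 for FoxK1 KD insulin. For FoxK1 KD basal, DESeq2, the GC and length trend taken out, and that trend with the block each gave 1. For FoxK1 KD insulin they gave 2, 3 and 3. Fits of only the groups compared gave 4 for DKD basal and 2, 15, 14 and 12 for insulin in the 4 genotypes. The DKD difference had 2 with DESeq2 and 2 with no filter. With 1 library left out the counts ranged from 0 to 1 for FoxK1 KD basal, 5 to 12 for DKD basal, 1 to 3 for FoxK1 KD insulin, 6 to 13, 10 to 13, 9 to 11 and 6 to 12 for insulin in the 4 genotypes in the same order, and 0 to 1 for the DKD difference. The ratio of Idh1 to Idh2 moved from -0.51 to -0.22 with the trend taken out. Where a count moved, the cause was not tested. Depth limits low genes, Mpc1 above all.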
